A study of Homo sapiens with 8 samples.

Results

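The genes described here belong to families named for enzymes and machines that write, erase, read and remodel chromatin. They were chosen by symbol, and some members act on other substrates. Every gene was taken whose symbol marks it as a KAT or PRMT writer, an HDAC, SIRT or KDM eraser, a KMT, SETD, NSD or EZH methyltransferase, a DNMT or TET enzyme, a BRD reader, or a SMARC, ARID or CHD remodelling factor. The tables of poly(A) site pairs held 78 such genes among 7504 genes in all. Of these, 74 were listed in the table that compared MDA-LM2 with MDA-Par cells and 73 in the table that compared MDA-sgHNRNPC with MDA-sgCTRL cells. No TET gene was listed. All 78 were annotated as protein coding, on 20 chromosomes. BRD3OS, whose symbol fits the pattern, is transcribed from the strand opposite BRD3 and was left out.

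The data came from mRNA 3′-end sequencing of 8 samples of the MDA-MB-231 breast cancer cell line, 2 in each of 4 groups. MDA-Par was the parental, poorly metastatic line and MDA-LM2 its derivative that is highly metastatic to the lungs. MDA-sgHNRNPC cells carried a CRISPR interference guide that knocks down HNRNPC, and MDA-sgCTRL cells a control guide, so both of these groups also carried the dCas9-KRAB repressor and went through drug selection. The tables shared no sample. Each row named a gene, a proximal poly(A) site and a distal poly(A) site. Its remaining entries were the authors' own log ratio, p-value and q-value, which are not used here. Neither counts nor values per sample stand in these tables, so depth and the spread between replicates are unknown, the knockdown of HNRNPC could not be checked, and no test was run. A listing says that a pair of sites was compared in those cells. It says nothing of how often either site was used, and the rule by which a pair came to be listed is not given in the sources used here.

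Chromatin is opened and closed by histone acetylation and deacetylation, marked by lysine and arginine methylation and by DNA methylation, and moved by ATP-driven remodellers. Most human genes carry more than one poly(A) site, and the choice between them sets the length of the 3′ UTR or, where a site lies upstream of the last exon, truncates the coding sequence. Cleavage usually follows a short distance downstream of the hexamer AAUAAA or its variant AUUAAA. HNRNPC is an abundant nuclear protein that binds runs of U in pre-mRNA and takes part in splicing and in the choice of poly(A) sites.

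KAT14, an acetyltransferase subunit of the ATAC complex, was listed with the same 3 sites in both tables, and hence with the same 3 pairs. Its sites were 2 genomic positions that lay 36972 nt apart and the end of ENST00000435364.7. GENCODE release 44 carries a later version of this transcript, so the listed end itself was not placed on GRCh38. The gene lies on the plus strand of chromosome 20 (18137228 to 18188387). In that release the later version ends 352 nt beyond the reference transcript (the MANE Select transcript), and both of these annotated ends follow AAUAAA, which lies 36 nt before the outer end and 17 nt before the inner one. The stretches of 30 bases that hold the signals are printed because both ends lie in the same last exon and so set the length of the 3′ UTR. Here and in the other sequences printed, bases are written as DNA on the transcript strand of GRCh38, 5′ to 3′, and come from GENCODE release 44 or the matching genome.
KAT14, end of the reference transcript, chr20:18188006-18188035: cagaaaaAATAAActagatgtttgtgtcta
KAT14, end of ENST00000435364.8, chr20:18188342-18188371: ctcaAATAAAaagctttctttgcacaaccc
Capitals mark the signal. The longest run of U in the last 100 nt was 4 nt before the inner end and 3 nt before the outer end, and the gene held none of the HNRNPC CLIP-derived sequences described below.

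The chromatin genes were listed with many sites. Together they had 313 sites, of which 199 were ends of annotated transcripts and 114 were given as genomic positions. The median was 4 sites per gene and the mean 4.01 (range 2 to 13), against a median of 3 and a mean of 3.29 over all 7504 genes. Only 2 sites were listed for 20 of the 78 genes (25.6%, against 42.1% of all genes), and 5 or more for 26 genes (33.3%, against 18.4%). Transcript ends made up 63.6% of their sites and 52.9% of the sites of all genes. These shares are descriptions and were not tested.

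**Figure D1:**
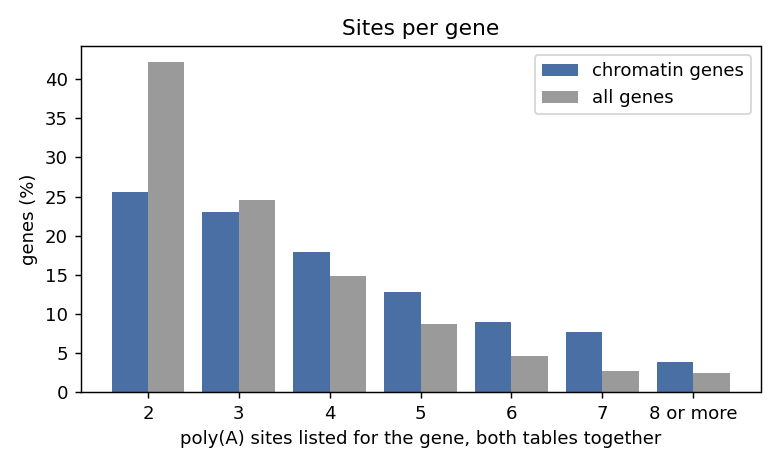
Share of genes (%, vertical axis) by the number of poly(A) sites listed for the gene in both tables together (horizontal axis), for the 78 chromatin genes and for all 7504 genes. Genes with 2 sites made up 25.6% of the chromatin genes and 42.1% of all genes, and every bar from 4 sites upwards is taller for the chromatin genes.

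A list of 55 other chromatin genes that the symbols do not capture, such as EP300, SUZ12 and WDR5, served as a comparison. In it 44 genes were listed, with 156 sites and a mean of 3.55 sites per gene, which lies between the mean of the 78 genes and that of all genes. Of those 44 genes, 18.2% had 5 or more sites.

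**Figure D2:**
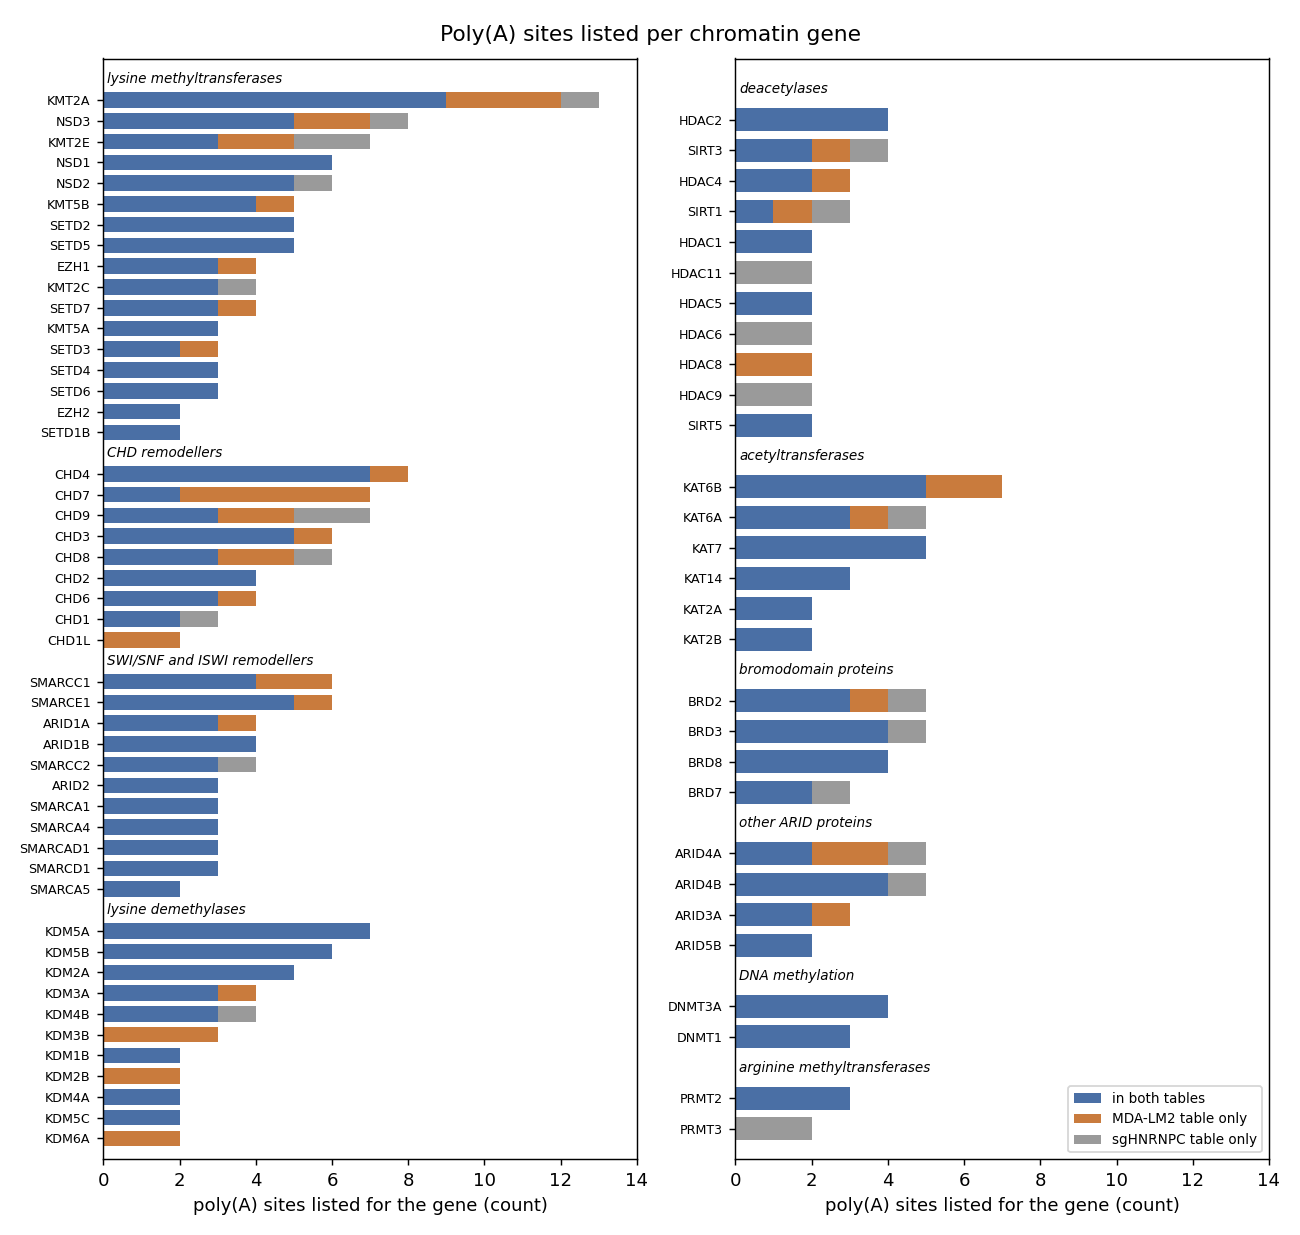
Number of poly(A) sites listed for each gene drawn (horizontal axis, count), grouped by role, with sites in both tables in blue, sites in the MDA-LM2 table only in orange and sites in the sgHNRNPC table only in grey. KMT2A reaches 13 sites, CHD7 has 5 sites in the MDA-LM2 table only, and the deacetylases have at most 4 sites.

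The KMT, SETD, NSD and EZH genes, a family built mostly of histone lysine methyltransferases, were the largest group, with 17 genes, all in both tables, 83 sites and a median of 4. KMT2A, which methylates H3K4 and is rearranged in leukaemia, had more sites than any other chromatin gene. It was listed with 12 sites in the MDA-LM2 table against 10 in the sgHNRNPC table, of which 9 were shared. Because every pair of a gene's sites is listed, KMT2A alone gave 66 and 45 pairs, which were 12.5% and 10.4% of the pairs of the chromatin genes. The gene lies on the plus strand of chromosome 11 (118436456 to 118526832), and 3 of its 8 transcript ends could be placed, at 55055, 21647 and 1256 nt upstream of the end of the reference transcript. NSD3, an H3K36 methyltransferase family member, had 8 sites, of which 7 were in the MDA-LM2 table against 6 in the sgHNRNPC table. KMT2E, a PHD and SET domain protein, was listed with 5 sites in each table but shared only 3 of them. Its most distal site in the sgHNRNPC table was the end of the reference transcript, which was not listed in the MDA-LM2 table. SETD3, an actin histidine methyltransferase, had the shortest distance between outermost placed ends among the chromatin genes with 2 or more, 721 nt, from inside its 3′ UTR to its end.

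CHD remodellers, named for a family of ATPases that move nucleosomes, had the highest median, 6 sites, over 9 genes and 47 sites. CHD4, the ATPase of the NuRD complex, was listed with 8 sites in the MDA-LM2 table against 7 of them in the sgHNRNPC table. Its 5 placed ends began 30453 nt upstream of the end of the reference transcript, and 4 of the 5 lay in coding exons. CHD7, the gene mutated in CHARGE syndrome, was listed with 7 sites in the MDA-LM2 table against 2 in the sgHNRNPC table, the widest difference among the chromatin genes. The sites missing from the sgHNRNPC table included the end of its reference transcript. CHD9 was listed with 5 sites in each table, of which 3 were shared, and an end 1653 nt beyond the reference transcript appeared in the sgHNRNPC table only. CHD6 had 4 sites, with placed ends 112837 nt apart. CHD1L, a remodeller recruited by poly(ADP-ribose), was listed with 2 sites in the MDA-LM2 table only.

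The genes grouped by symbol as SWI/SNF and ISWI, not every one of which belongs to either family, numbered 11. All were in both tables, with 41 sites and a median of 3. SMARCC1, a core scaffold subunit of SWI/SNF, had 6 sites in the MDA-LM2 table against 4 in the sgHNRNPC table. The 2 ends listed in the MDA-LM2 table only lay 143756 nt (coding exon) and 92927 nt (intron) upstream of the reference end, while the end of the reference transcript and 3 genomic positions were in both. SMARCE1, another subunit of the complex, had 6 and 5 sites. ARID1A, the DNA-binding subunit often mutated in cancer, had 4 and 3 sites, and the site missing from the sgHNRNPC table was an end in a coding exon 9481 nt upstream. Its paralogue ARID1B had the same 4 sites in both tables, with placed ends 2679 nt apart. The other ARID proteins, 4 genes with 15 sites and a median of 4, included ARID4A and ARID4B, subunits of a Sin3 deacetylase complex, with 5 sites each, and ARID3A, a DNA-binding transcription factor, with 3.

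Lysine demethylases numbered 11, with 39 sites and a median of 3, and had the highest share of transcript ends, 71.8%. KDM5A and KDM5B, which remove H3K4 methylation, had 7 and 6 sites, the same in both tables. KDM5B was listed with 5 transcript ends between 33945 and 2909 nt upstream of the end of the reference transcript, but not with that end itself. KDM2A, an H3K36 demethylase, had the same 5 sites in both tables, among them ends 1709 nt, 412 nt and 0 nt from the reference end. KDM3B (3 sites), KDM2B (2 sites) and KDM6A, an H3K27 demethylase (2 sites), were listed in the MDA-LM2 table only.

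Acetyltransferases numbered 6, all in both tables, with 24 sites and a median of 4. KAT6B had 7 sites, all of them transcript ends, and the longest distance between outermost placed ends of any chromatin gene, 189564 nt. The gene lies on the plus strand of chromosome 10 (74824927 to 75032624). Its 5 ends nearest the reference end, from 7653 nt upstream to 0, were in both tables, and the 2 outer ones, 189564 and 60090 nt upstream, were in the MDA-LM2 table only. KAT6A, its paralogue in the MOZ and MORF complexes, had 4 sites in each table and shared 3. KAT7, the catalytic subunit of the HBO1 complexes, was listed with 4 genomic positions over 4075 nt and the end of the reference transcript. KAT2A, the GCN5 subunit of SAGA, had 2 ends 1113 nt apart.

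Deacetylases had few sites, with 28 over 11 genes and a median of 2. They also held 4 of the 9 genes listed in a single table, with HDAC6, HDAC9 and HDAC11 in the sgHNRNPC table and HDAC8 in the MDA-LM2 table. HDAC2, a class I deacetylase of the NuRD, Sin3 and CoREST complexes, was listed with 4 genomic positions over 5552 nt and no transcript end. SIRT3, a mitochondrial deacetylase, had 3 sites in each table, of which 2 were shared, and the end of its reference transcript was in the MDA-LM2 table only. HDAC4, a class IIa enzyme, had 3 and 2 sites. HDAC5, of the same class, had 2 ends 1548 nt apart, one inside the 3′ UTR and one 7 nt beyond the reference end.

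Bromodomain proteins, which read acetylated lysines, numbered 5, with 24 sites and a median of 5. BRD2, a BET family reader, had 4 sites in each table, of which 3 were shared. BRD3, of the same family, had 4 and 5 sites, and 4 of them were in both tables. For DNA methylation, DNMT1, the maintenance methyltransferase, had 3 sites and DNMT3A, a de novo methyltransferase, had 4, the same in both tables. For arginine methylation, PRMT2 had 3 sites in both tables and PRMT3, which methylates a ribosomal protein, had 2 in the sgHNRNPC table only.

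The next question was where the listed transcript ends lie. By identifier and version, 174 of the 199 ends (87.4%, against 89.5% over all genes) were found in GENCODE release 44 and placed on GRCh38, in 72 of the 78 genes. Each was compared with the MANE Select transcript of its gene. An end in a coding exon was the most frequent place, with 80 of 174 ends (46.0%, against 26.2% over all genes). The end of the reference transcript itself came next, with 42 ends (24.1%, against 37.6%). A further 33 lay inside the 3′ UTR (19.0%, against 2922 of 11678 ends over all genes), 9 beyond the end (5.17%, against 5.33%), 9 in an intron (5.17%, against 4.50%) and 1 in the 5′ UTR of BRD2. By gene, 47 of 72 (65.3%, against 35.2%) had at least 1 listed end in a coding exon and 7 had one in an intron (9.72%, against 5.86%).

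Some of these ends are limits of the annotation. GENCODE tags transcripts whose true 3′ end was not found, and 31 of the 174 ends carried the tag (17.8%, against 11.6%), 30 of them among the 80 in coding exons. Without tagged ends the share in coding exons was 35.0%, against 17.1% over all genes. By transcript class, 94 of the 174 ends belonged to protein-coding transcripts, 42 to transcripts with a retained intron (24.1%, against 1396 of 11678 ends over all genes), 21 to targets of nonsense-mediated decay and 17 to transcripts with no defined coding sequence. How reads were shared between such ends could not be seen from the tables.

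**Figure D3:**
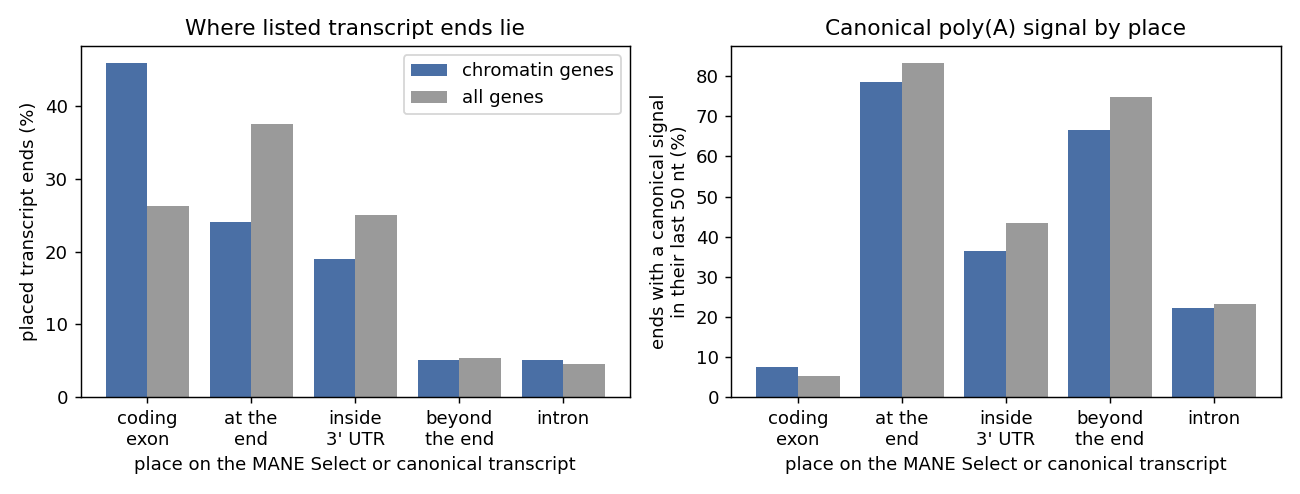
Left, share of placed transcript ends (%) by place on the reference transcript, for the chromatin genes (174 ends) and all genes (11678 ends). Right, share of the ends at each place with a canonical poly(A) signal in the last 50 nt (%). The coding exon bar is 46.0% for the chromatin genes and 26.2% for all genes, and at the end of the reference transcript 78.6% and 83.4% of the ends carried a signal.

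A canonical signal, AAUAAA or AUUAAA within the last 50 nt of the transcript, was found at 59 of the 174 ends (33.9%, against 49.0% over all genes). The share followed the place of the end. It was 33 of 42 at the end of the reference transcript (78.6%, against 83.4%), 6 of 9 beyond it (66.7%, against 74.9%), 12 of 33 inside the 3′ UTR (36.4%, against 43.4%), 2 of 9 in introns (22.2%, against 23.2%) and 6 of 80 in coding exons (7.5%, against 5.29%). The gap at each of these places was smaller than the gap over all ends, and in coding exons the chromatin genes had the higher share. The median distance from the signal to the end was 17 nt (quartiles 16 and 22), against 18 nt over all genes. Among ends without the tag, 39.2% carried a signal, against 54.6%.

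Signals at early ends are printed beside the signals at the most distal transcript end of the same gene, because an end inside the coding region can truncate the protein. CHD9 and ARID4B each had one of the 6 ends in coding exons that carried a signal. PRMT2, an arginine methyltransferase and coactivator, had one in an intron. The signal of the upstream end was AUUAAA in CHD9 and ARID4B and AAUAAA in PRMT2, and the distal end of each of the 3 genes had AAUAAA. Capitals mark the signal, and the upstream ends come before the distal ends.
CHD9, ENST00000565832.5, coding exon, plus strand, chr16:53222726-53222755: cagcatacATTAAAagatcaagactctcaa
ARID4B, ENST00000474401.1, coding exon, minus strand, chr1:235172657-235172686: tgtcATTAAAatctgaagtagcttccattg
PRMT2, ENST00000482508.5, intron, plus strand, chr21:46661241-46661270: tcaaaatcaAATAAAttatatttcgtttca
CHD9, ENST00000566029.5, beyond the reference end, plus strand, chr16:53329121-53329150: aagagAATAAAtttccattgttttaagtca
ARID4B, ENST00000264183.9, reference end, minus strand, chr1:235166902-235166931: gctctgaAATAAAatgccatagtttgtgaa
PRMT2, ENST00000397638.6, 3′ UTR, plus strand, chr21:46664919-46664948: gctcAATAAAtatttttaaatgagtgaatg
The CHD9 transcript with the upstream end carries the tag for a 3′ end that was not found, so a match there is one of letters within a coding exon. The ARID4B transcript retains an intron, as does the intronic PRMT2 transcript. KMT2A had another of the 6, that of ENST00000648910.1, with AAUAAA. Outside CHD9 and ARID4B, every one of the 6 had AAUAAA.

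Distances between placed ends were long. In the 47 genes with 2 or more placed ends, the median distance between the outermost ones was 25292 nt (quartiles 10612.5 and 45637, range 721 to 189564), against 5902.5 nt over 3520 genes. The longest distances after KAT6B were those of SMARCC1 (143756 nt), CHD7 (126498 nt), CHD6 (112837 nt) and CHD9 (106395 nt). The shortest after SETD3 were those of KAT2A (1113 nt), HDAC5 (1548 nt), ARID1B (2679 nt) and PRMT2 (3681 nt). These are distances along the genome, introns included. Ends tagged as not found were kept in them, and the upstream outermost ends of KAT6B, CHD7 and CHD9 carry that tag. Such distances can reach to a limit of the annotation. In every pair with both ends placed, 178 in the MDA-LM2 table against 135 in the sgHNRNPC table, the site named distal lay downstream on GRCh38. The same held for every such pair over all genes, as the names proximal and distal imply. The genomic positions lay closer together. In 33 genes with more than 1 of them the median span was 1944 nt, against 1872 nt over all genes. It was 2422 nt, against 1797.5 nt, in the MDA-LM2 table alone and 1367 nt, against 1814 nt, in the sgHNRNPC table alone, so its order against all genes turned with the table. Over both tables it ran from 405 nt in KMT2E to 171070 nt in CHD9.

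**Figure D4:**
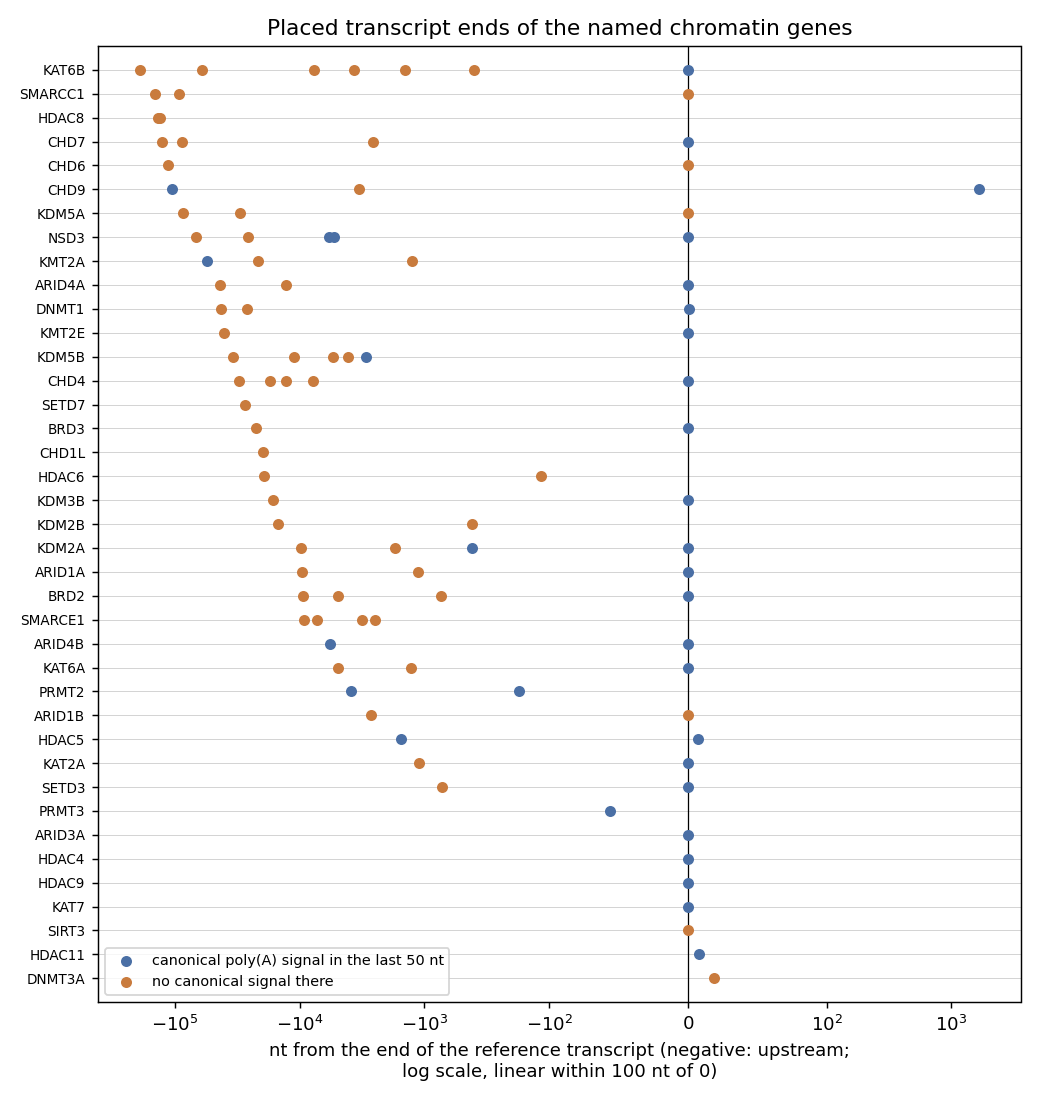
Placed transcript ends of the named chromatin genes, as distance in nt from the end of the reference transcript (horizontal axis, log scale beyond 100 nt on either side of 0, negative values upstream). Blue points have a canonical poly(A) signal in the last 50 nt and orange points have none, and most blue points sit at or near 0 while the points far upstream are mostly orange.

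Because HNRNPC binds U runs, the ends were also searched for runs of at least 5 U in the last 100 nt. Such a run was found at 39 of 174 ends (22.4%, against 27.2% over all genes), and at 21 of the 42 ends of reference transcripts (over all genes, 38.5% of such ends). Of the 80 ends in coding exons 3 had one (3.75%, against 7.71% over all genes). A run of 11 U lay before the end of a DNMT1 transcript that retains an intron. That end falls in a coding exon 26566 nt upstream of the reference end along the genome, whereas the run itself was not placed on the reference transcript. The stretch is printed with the run in capitals.
DNMT1, ENST00000589349.5, minus strand, chr19:10160061-10160090: atcttgtgaTTTTTTTTTTTcccccagaac
This run ends 64 nt before the transcript end, counted along the spliced transcript.

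The study built a reporter library from sequences under HNRNPC CLIP peaks, which are stretches of RNA bound by the protein. The paper places these binding sites in 3′ UTRs. Of 98 unscrambled sequences read, 2 matched a chromatin gene exactly. Other genes were not searched, so no share over all genes can be set beside this count. The one in SETD7, a lysine methyltransferase of histone H3 and other proteins, is 108 nt long and lies in the 3′ UTR on the minus strand of chromosome 4 (139511226 to 139511333), 5188 nt before the end of the reference transcript. The one in SMARCE1 is 141 nt long and lies in an intron of the reference transcript on the minus strand of chromosome 17 (40642053 to 40642193), 7890 nt upstream of the nearest placed end listed for the gene. U made up 40.7% of the bases in SETD7 and 39.0% in SMARCE1. The 30 bases around the longest run of U in each are shown with the run in capitals.
SETD7, 3′ UTR, chr4:139511279-139511308: tttccatagtgcTTTTTTcctatggccagt
SMARCE1, intron, chr17:40642136-40642165: ggtaaaaatatccTTTTTgacataaagagt
SETD7 was listed with 4 sites in the MDA-LM2 table against 3 in the sgHNRNPC table, and SMARCE1 with 6 and 5. In each gene every site of the sgHNRNPC table was also in the MDA-LM2 table. No other chromatin gene held a sequence of this library, which was a selection and not the full set of peaks.

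The tables were last compared with each other. Of the 78 genes, 69 (88.5%, against 77.8% of all genes) were in both. The genes in a single table had 2 or 3 sites each, 5 in the MDA-LM2 table (KDM3B, CHD1L, HDAC8, KDM2B and KDM6A) and 4 in the sgHNRNPC table (HDAC6, HDAC9, HDAC11 and PRMT3). Of all 7504 genes, 703 were in the MDA-LM2 table only and 963 in the sgHNRNPC table only. The 5 genes comprised 3 demethylases, a remodeller and a deacetylase, and the 4 genes 3 deacetylases and an arginine methyltransferase. By pair, 530 were listed in the MDA-LM2 table against 431 in the sgHNRNPC table. The 359 shared pairs were 67.7% of the former and 83.3% of the latter, whereas over all genes the corresponding shares were 78.8% and 68.4%. The order of the totals was the other way over all genes, with 27016 pairs in the MDA-LM2 table against 31148 in the sgHNRNPC table. Pairs of 2 transcript ends made up 44.5% and 42.9% of the pairs of the chromatin genes, against 24.4% and 19.9% over all genes. Pairs of one gene share sites, so these are not independent.

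In the 69 genes of both tables, 35 had the same sites in both (50.7%, against 53.3% over all genes). More sites were listed in the MDA-LM2 table for 20 genes (29.0%, against 15.0%) and in the sgHNRNPC table for 8 (11.6%, against 25.3%). The 20 included KAT6B, SMARCC1, KMT2A and CHD7, with 2, 2, 2 and 5 more sites, and each of the 8 had 1 more site. In the list of other chromatin genes 7 of 40 had more sites in the MDA-LM2 table against 8 in the sgHNRNPC table. For transcript ends alone, 16 of 66 genes had more in the MDA-LM2 table (24.2%, against 11.7% over all genes) and 4 more in the sgHNRNPC table (6.06%, against 10.8%). For genomic positions alone, 10 of 54 genes had more in either table (18.5% each, against 9.79% and 25.5% over all genes). Over all 78 genes, those of a single table included, 29 of 174 placed ends were in the MDA-LM2 table only (against 1806 of 11678 over all genes) and 11 in the sgHNRNPC table only (against 1885 of 11678). Of the 29 ends, 2 carried a canonical signal (6.90%, against 32.8% over all genes), compared with 51 of 134 ends in both tables (38.1%, against 52.2%) and 6 of the 11 in the sgHNRNPC table only (54.5%, against 50.8%). Most of the 29 ends lay in coding exons, a place where 7.5% of the placed ends of chromatin genes carried a signal. The part of place in these shares was not tested. The part of sequencing depth in these differences was not tested, since neither table gives it.

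**Figure D5:**
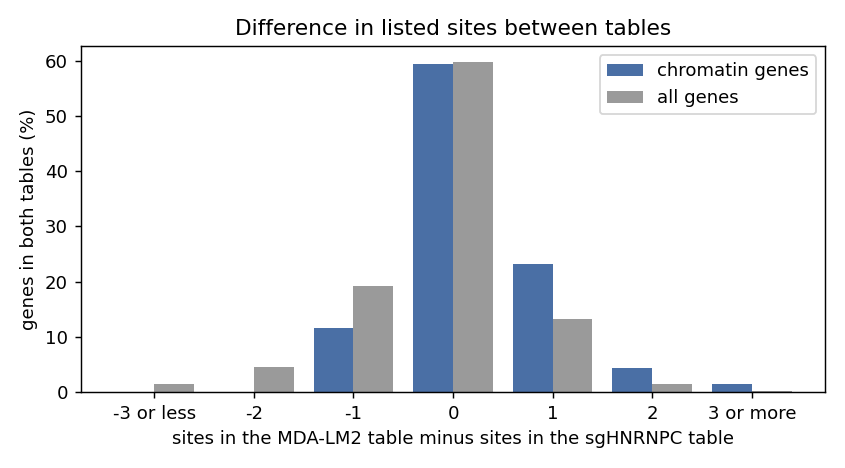
Share of genes listed in both tables (%, vertical axis) by the number of sites in the MDA-LM2 table minus the number in the sgHNRNPC table (horizontal axis), for 69 chromatin genes and 5838 genes in all. The bars at 0 are of like height, and on the positive side the chromatin genes stand above all genes, with CHD7 alone at 3 or more.

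The most distal site of a chromatin gene was a transcript end in 64 of 74 genes of the MDA-LM2 table (86.5%, against 89.1% over all genes) and 67 of 73 of the sgHNRNPC table (91.8% in both sets of genes). It was the end of the reference transcript in 39 genes of each table (52.7%, against 55.1%, and 53.4%, against 57.8%). The most proximal site was a transcript end in 48 genes (64.9%, against 50.1% over all genes) and 41 genes (56.2%, against 46.2%).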

How the data were processed

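Poly(A) sites were measured with Lexogen QuantSeq 3′-end libraries. Per the labels, UMI-tools and Salmon 0.14.1 were used, with hg38 named as the build. The authors counted reads at unique annotated transcript ends and compared pairs of sites with APAlog, a multinomial logistic regression. The deposited tables hold 0 columns of single samples. Their numeric columns (log ratio of proximal to distal use, p-value and q-value) are the authors' own comparisons and were not used. The gene and site names were. How the genomic positions were obtained is not given in the sources used here, and they did not match GRCh38, so only distances within the tables are given.

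Sites, pairs and distances were counted per gene, and shares are set beside those over all genes without a test. Transcript ends were placed by identifier and version in GENCODE release 44. Signals were searched in the last 50 nt, runs of 5 or more T in the last 100 nt, on the transcript strand. CLIP-derived sequences were matched exactly to the gene bodies on both strands. Members, gene lists and comparisons were chosen with earlier results of these data known. Genes named were KAT14, the 3 with the most sites in each role group, those with a CLIP-derived sequence, the 5 longest and 5 shortest distances, and members of a single table; BRD3OS and examples of the comparison list were named outside this rule. One gene that this rule names is counted in the totals, is left out of the plots by gene and is not reported here. Scripts were tested on simulated data and run in Python 3.11.15 with pandas 2.3.3, numpy 2.4.6, scipy 1.17.1 and matplotlib 3.10.9.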

Additional observations from a re-analysis of the deposited data

How the results depend on the processing

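Of 21 alternative settings, 13 moved their result by less than its limit (1.5 times for counts and distances, the 95% binomial interval for shares). Among these, the median span of genomic positions went from 1944 nt to 2422 nt in the MDA-LM2 table alone and 1367 nt in the sgHNRNPC table alone. Counting the same pair in place of the same gene lowered the share listed in both tables from 88.5% to 59.6%. Over all genes the corresponding shares were 77.8% and 57.8%, so by pair the chromatin genes lay near all genes. The share of ends with a canonical signal was 33.9% as reported, 25.9% with AAUAAA alone and 42.0% in the last 100 nt. The share with a U run was 22.4% as reported, 9.77% for runs of 6 and 40.8% in the last 250 nt. These shifts follow from stricter or wider searches. In alternatives chosen after seeing the data, ends in coding exons fell from 46.0% to 35.0% without tagged ends, genes with more sites in the MDA-LM2 table numbered 10 in place of 20 for genomic positions alone, and genes with more sites in the sgHNRNPC table numbered 4 in place of 8 for transcript ends alone. The cause was not tested. Without KMT2A the last 2 counts were 19 and 8. No paired analysis was possible because neither table gives values per sample, and leaving out a replicate could not be run for the same reason. Depth is unknown, so a site missing from a table may be unused or unlisted.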
